A study of Mus musculus with 6 samples.

Results

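The enzymes that write, maintain and remove methyl groups on DNA were compared between Ltbr-/- and Ly5.1 LT/ST-HSCs, together with the isocitrate dehydrogenases that make a cosubstrate of the removing enzymes. The 9 genes were chosen by symbol, with earlier results of these data known, and each of the 9 is among the 26216 names in the files. They are the DNA methyltransferases *Dnmt1*, *Dnmt3a* and *Dnmt3b*, the maintenance cofactor *Uhrf1*, the dioxygenases *Tet1*, *Tet2* and *Tet3*, and the dehydrogenases *Idh1* and *Idh2*. The cells came from mixed bone marrow chimeras, for which LSKs (Lin-, Sca-1+ and c-Kit+ cells) of Ltbr-/- (CD45.2) and Ly5.1 (CD45.1) donors were given together to irradiated Ly5.1/Ly5.2 recipients. At week 6 the CD150+ CD48- cells among viable LSKs, which are the LT/ST-HSCs, were sorted, and cells of the chimeras were pooled into the 3 Ltbr-/- and 3 Ly5.1 samples. Donor age was 13, 10 and 10 to 13 weeks for Ltbr-/- replicates 1, 2 and 3 and 7 to 13 weeks for each Ly5.1 replicate, and the effects of donor age and genotype cannot be told apart fully. The knockout is present in every cell of the donor from the germline on, and the donors also differ at the CD45 locus by which they were told apart. The files give 1 signal per gene and sample, by its values a regularized log raised as a power of 2, which is scaled between samples, is not per length and understates the fold changes of weakly expressed genes. The study reports an average number of reads per sample, but the depth of each sample is unknown, since no counts are given.

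DNA methylation is copied after replication by Dnmt1, which Uhrf1 recruits to DNA methylated on 1 strand, and is set anew by Dnmt3a and Dnmt3b. Tet enzymes oxidize 5-methylcytosine in a reaction that uses oxygen, iron and 2-oxoglutarate, and Idh1 in the cytosol and Idh2 in mitochondria make 2-oxoglutarate from isocitrate. In blood, Dnmt3a and Tet2 are known as regulators of HSC self-renewal and differentiation and are recurrently mutated in myeloid leukemia and clonal hematopoiesis, as are IDH1 and IDH2, whose mutant forms make 2-hydroxyglutarate, an inhibitor of Tet enzymes.

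The targeted gene was checked first. *Ltbr* had a signal of 24.2, 26.4 and 23.1 in the Ltbr-/- samples and of 564, 549 and 522 in the Ly5.1 samples. Among markers of the sorted population, all 15 HSC markers on the list were above the filter on low values, with 1 higher (*Gata2*) and 2 lower (*Ly6a* and *Meis1*) in Ltbr-/- cells. In this paragraph, higher and lower mean past an adjusted p under 0.05 in limma. Of all 13108 tested genes 14.8% passed it, 10.6% as higher and 4.18% as lower. Of the 15 HSC markers 12 did not pass it, and the 2 that passed as lower stand beside 4.18% of all genes. Some markers of other cells also differed between the genotypes. Differences are given as log2 fold changes (log2FC), Ltbr-/- minus Ly5.1. All 9 neutrophil and granulocyte progenitor markers were lower in Ltbr-/- cells, the median log2FC being −0.47, with a summed signal of 43919 to 44489 in Ltbr-/- against 57547 to 62249 in Ly5.1 samples. Of 7 tested mast cell and basophil markers 2 were higher (*Cma1*, *Cpa3*) and 1 lower (*Prss34*), with summed signals of 7797 to 8356 against 4330 to 4961, and *Tpsb2* was listed at the same value in all samples. Of 5 tested macrophage markers 2 were higher (*Emr1*, *Cd68*), with sums of 2412 to 2703 against 1823 to 2061. Of 7 erythroid markers 2 were higher (*Hba-a1*, *Hba-a2*), with sums of 4074 to 4388 against 2497 to 2935. Of 4 tested B cell markers 1 was higher (*Cd79a*) and 2 lower (*Ighm*, *Igkc*), with sums of 1412 to 1546 against 2266 to 2431, and of 5 megakaryocyte markers 1 was higher (*Itga2b*) and 1 lower (*Pf4*), with sums of 12219 to 12946 against 9742 to 11011. Neither of 2 tested T cell markers passed the test, with sums of 242 to 251 against 237 to 272. Sums weigh the genes with the highest signal most, and they did not always go with the medians. The median log2FC was −0.04 for mast cell and basophil markers (4 of 7 below 0) and −0.01 for macrophage markers (3 of 5). It was −0.02 for megakaryocyte markers (3 of 5), 0.11 for erythroid markers (2 of 7) and −0.43 for B cell markers (2 of 4). For the HSC markers it was −0.14, with 11 of 15 below 0, against 53.6% of all tested genes. In bulk samples, fewer cells of a type and less RNA per cell cannot be told apart. The part of these cell types in the results below was not tested.

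*Dnmt1* was the only 1 of the 9 genes that passed an adjusted p under 0.05 in limma, and it was lower in Ltbr-/- cells. This share, 1 of 9, stands beside 14.8% of the 13108 tested genes that passed in either direction and 4.18% that passed as lower. With the added threshold of a 1.5-fold difference, which 2.78% of all tested genes passed, 2.72% as higher and 0.061% as lower, 0 of the 9 were called by limma, while 3 of the 9 had an unadjusted p under 0.05. The estimates of 8 of the 9 genes lay below 0, against 53.6% of all tested genes, and their median was −0.16, where that of all tested genes was −0.01. In 4 of the 9, *Dnmt1*, *Uhrf1*, *Dnmt3a* and *Tet3*, the 3 Ltbr-/- values lay below the 3 Ly5.1 values, as they did for 13.5% of all tested genes, while 30.4% did not overlap in either direction. For *Tet1* and *Idh2* the lowest and the highest of the 6 samples were both Ltbr-/- samples, so that these genes spread more within Ltbr-/- than between the genotypes.

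**Figure D1:**
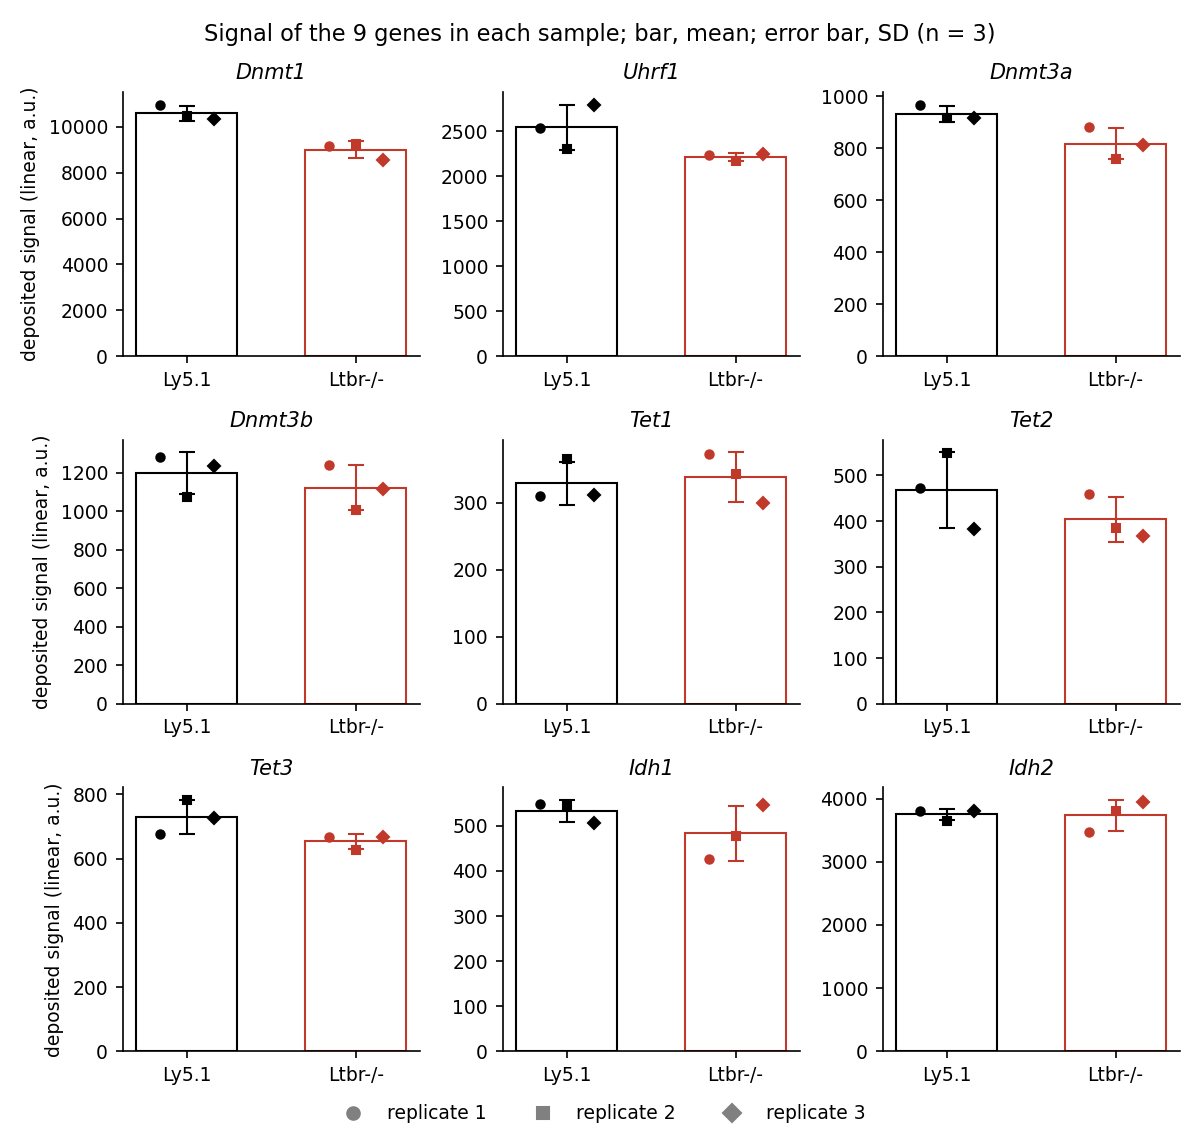
Deposited signal (linear, arbitrary units) of the 9 genes in each of the 6 samples, with a panel for each gene and an axis that starts at 0; points are samples, bars means and error bars SDs (n = 3). The 3 Ltbr-/- points lie below the 3 Ly5.1 points for *Dnmt1*, *Uhrf1*, *Dnmt3a* and *Tet3* and overlap them for the other 5 genes.

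*Dnmt1*, on chromosome 9 of GRCm38 (20907209 to 20959888, minus strand), had a signal of 9167, 9265 and 8563 in Ltbr-/- replicates 1 to 3 against 10968, 10457 and 10320 in Ly5.1 replicates 1 to 3. All Ltbr-/- values were below all Ly5.1 values, and the gap between the groups was wider than the range within either group. The means were 8998 ± 380 (SD, n = 3) and 10582 ± 341 (SD, n = 3), a log2FC of −0.23 (95% interval −0.36 to −0.10, limma adjusted p = 0.00979), or 15.0% lower. Leaving out each sample in turn kept the log2FC between −0.26 and −0.20, but the adjusted p rose to 0.0940 without Ltbr-/- replicate 3 and to 0.0633 without Ly5.1 replicate 1. The call was also lost with no filter on low values (limma adjusted p = 0.0707) and with the upper 75% of names (limma adjusted p = 0.0865), and quantile normalization moved the log2FC to −0.52. No 76-base window of its longest transcript was shared with another gene, and no annotated exon of another gene overlaps it.

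*Uhrf1*, on chromosome 17 (56303321 to 56323486, plus strand), encodes the reader of hemimethylated DNA that brings Dnmt1 to the replication fork. Its signal was 2237, 2165 and 2247 in Ltbr-/- and 2536, 2298 and 2794 in Ly5.1 replicates. The groups did not overlap, and the Ltbr-/- values lay closer together (SD 45.1) than the Ly5.1 values (SD 248). The log2FC was −0.19 (95% interval −0.36 to −0.03, limma adjusted p = 0.115), which did not pass the threshold over all genes. It did pass without Ly5.1 replicate 2, the lowest of its group, at −0.26 (limma adjusted p = 0.0411), and after quantile normalization at −0.25 (limma adjusted p = 0.0267). Of its 76-base windows 11.1% also occur in *Gm5648*, so that its reads may be shared in part. The log2 ratio of *Uhrf1* to *Dnmt1* within a sample was −2.02 ± 0.08 in Ltbr-/- and −2.06 ± 0.16 in Ly5.1 samples (SD, n = 3 each, exact two-sided permutation test, p = 0.7).

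*Dnmt1* and *Uhrf1* are known targets of E2F, a family of factors that drive S phase genes, and their start regions are shown for that reason. RefSeq start windows (GRCm38.p6, 250 bases before to 50 after each annotated start) matched all 9 genes, with 15 windows in all. They were searched on both strands for the 4 words TTTCCCGC, TTTCGCGC, TTTGCCGC and TTTGGCGC, which together spell a common E2F motif. Of the 9 genes only *Dnmt1* and *Uhrf1* held such a word, in 1 of 3 and 1 of 2 windows. Over all 32851 start windows the share was 2.26%, and over all genes 2.61%. Each of the 4 words holds a CpG, and these shares were not matched for CpG content or number of windows. The matched stretches are given on the strand of the gene, with the word in capitals, and a match describes letters and not a bound site.
Dnmt1, chr9:20952825-20952852, minus strand: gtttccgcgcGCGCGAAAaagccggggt
Dnmt1, chr9:20952574-20952600, minus strand: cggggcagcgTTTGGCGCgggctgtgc
Uhrf1, chr17:56304118-56304145, plus strand: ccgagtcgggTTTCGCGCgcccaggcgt
In the first *Dnmt1* stretch the word TTTCGCGC reads on the opposite strand, and in *Uhrf1* the same word reads on the strand of the gene. Both *Dnmt1* stretches lie in an annotated UTR of 1 or more GENCODE transcripts, and the *Uhrf1* stretch lies in an annotated intron. The windows of *Dnmt3a*, *Dnmt3b*, the Tet genes and the Idh genes held none of the 4 words. The number of CpG dinucleotides per 300-base window ranged from 2 to 33 in *Dnmt1*, from 12 to 33 in *Uhrf1* and from 18 to 47 in *Dnmt3a* and was 57 in *Tet2*, against a median of 7 over all start windows.

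Genes of proliferation gave values to read beside this pair. Of 25 proliferation genes, all tested, 1 passed the test as higher, 0 as lower and 24 did not pass (limma). Beside this, 10.6% of all tested genes passed as higher and 4.18% as lower. In the list 13 estimates lay below 0, with a median log2FC of −0.06. The gene that rose was *Ccnb2*, a cyclin of G2 and mitosis, from 2431 ± 131 to 2965 ± 141 (SD, n = 3 each), with a log2FC of 0.29 (limma adjusted p = 0.00992). This call held in 4 of the 6 fits that left out a sample and was lost after quantile normalization (0.21, limma adjusted p = 0.0568). Under that normalization 8 of the 25 proliferation genes passed in either direction, and the median log2FC of the list was −0.10, so that this count depends on scaling. *Mki67*, a marker of cycling cells, was at 11972 ± 322 in Ltbr-/- and 12934 ± 213 in Ly5.1 cells (SD, n = 3 each), a log2FC of −0.11 (limma adjusted p = 0.232).

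*Dnmt3a*, on chromosome 12 (3806007 to 3914443, plus strand), had a signal of 882, 760 and 813 in Ltbr-/- and of 968, 916 and 915 in Ly5.1 replicates. All Ltbr-/- values were below all Ly5.1 values, and Ltbr-/- replicate 1 came closest to the Ly5.1 group. The log2FC was −0.19 (95% interval −0.37 to −0.01, limma adjusted p = 0.156), so that the difference did not pass over all genes. Antisense transcripts of *Dnmt3aos* overlap 0.80% of its exonic bases.

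*Dnmt3b*, on chromosome 2 (153649450 to 153687730, plus strand), had a signal of 1243, 1009 and 1113 in Ltbr-/- and of 1282, 1075 and 1236 in Ly5.1 replicates. The groups overlapped, and replicate 2 was the lowest sample in both genotypes. The log2FC of −0.10 (95% interval −0.28 to 0.09, limma adjusted p = 0.553) was within the spread of the replicates. Of its windows 7.63% are shared with *Dnmt3c*, a recent copy of the gene that acts in male germ cells. The log2 ratio of *Dnmt3b* to *Dnmt3a* was 0.45 ± 0.04 in Ltbr-/- and 0.36 ± 0.11 in Ly5.1 samples (SD, n = 3 each, exact two-sided permutation test, p = 0.2). Of the 2 de novo enzymes neither thus passed the test, and their ratio overlapped between the genotypes.

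*Tet1*, on chromosome 10 (62804570 to 62908996, minus strand), had a signal of 373, 343 and 299 in Ltbr-/- and of 311, 366 and 311 in Ly5.1 replicates. Both the highest and the lowest sample were Ltbr-/-, and the log2FC was 0.04 (95% interval −0.16 to 0.24, limma adjusted p = 0.852). Its sign turned when Ltbr-/- replicate 1 or Ly5.1 replicate 1 was left out.

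*Tet2*, on chromosome 3 (133463679 to 133545139, minus strand), had a signal of 459, 384 and 368 in Ltbr-/- and of 473, 548 and 383 in Ly5.1 replicates. Ly5.1 replicate 3 lay among the Ltbr-/- values, and the Ly5.1 SD of 82.9 was the larger of both SDs. The log2FC was −0.20 (95% interval −0.42 to 0.02, limma adjusted p = 0.224). Without Ly5.1 replicate 3 it was −0.34 (limma adjusted p = 0.0269), and without Ly5.1 replicate 2 it was −0.08 (limma adjusted p = 0.733), so that the estimate rested on single Ly5.1 samples.

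*Tet3*, on chromosome 6 (83362373 to 83459084, minus strand), had a signal of 666, 626 and 668 in Ltbr-/- and of 677, 783 and 727 in Ly5.1 replicates. The groups did not overlap, but the closest samples, Ltbr-/- replicate 3 and Ly5.1 replicate 1, lay near each other. The log2FC was −0.16 (95% interval −0.34 to 0.03, limma adjusted p = 0.272). None of the 3 Tet genes passed the test, and in each the 95% interval held 0. The log2 ratio of *Tet1* to *Tet2* was −0.25 ± 0.08 in Ltbr-/- and −0.50 ± 0.17 in Ly5.1 samples (SD, n = 3 each), a difference of 0.24 whose groups overlapped (exact two-sided permutation test, p = 0.3).

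**Figure D2:**
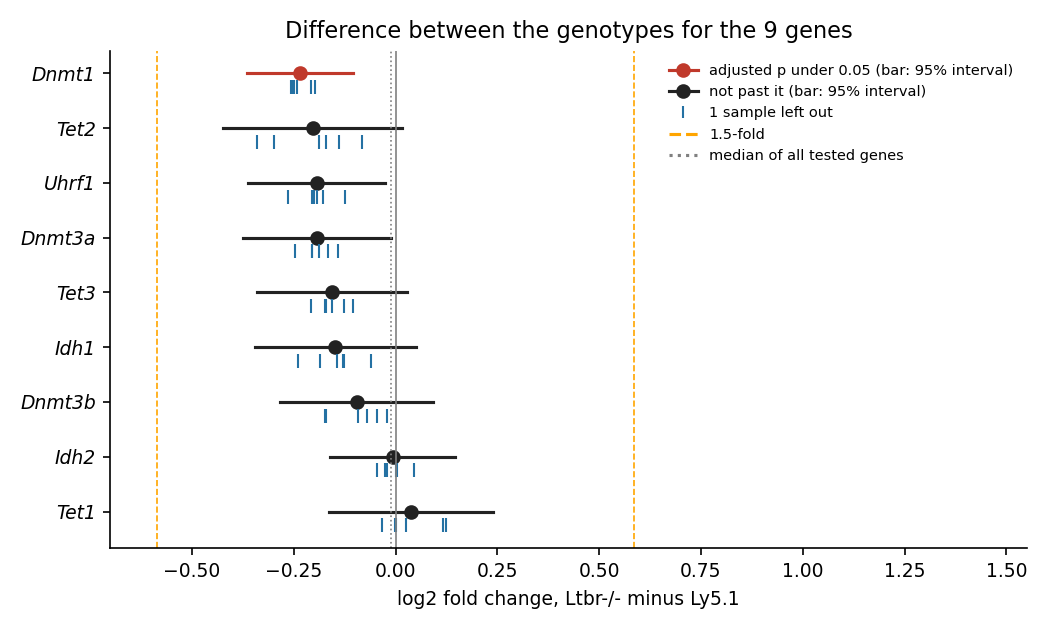
Log2 fold change (x axis, Ltbr-/- minus Ly5.1) of the 9 genes with 95% intervals from limma, the values with 1 sample left out as blue ticks, the median of all tested genes as a dotted line and 1.5-fold as dashed lines. *Dnmt1* at −0.23 is the gene past an adjusted p of 0.05, *Tet2* spreads most when a sample is left out, and every interval stays inside the 1.5-fold lines.

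*Idh1*, on chromosome 1 (65158616 to 65186500, minus strand), had a signal of 426, 478 and 547 in Ltbr-/- and of 548, 546 and 505 in Ly5.1 replicates. Ltbr-/- replicates 1 and 2 were below the Ly5.1 samples, and Ltbr-/- replicate 3 was not. The log2FC was −0.15 (95% interval −0.34 to 0.05, limma adjusted p = 0.344).

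*Idh2*, on chromosome 7 (80094846 to 80115392, minus strand), had a signal of 3466, 3807 and 3937 in Ltbr-/- and of 3799, 3651 and 3804 in Ly5.1 replicates. The Ly5.1 values lay inside the Ltbr-/- range, and the log2FC was −0.01 (95% interval −0.16 to 0.15, limma adjusted p = 0.968). Its interval is compatible with a change of 10.5% down to 10.6% up. The log2 ratio of *Idh1* to *Idh2* was −2.96 ± 0.09 in Ltbr-/- and −2.82 ± 0.09 in Ly5.1 samples (SD, n = 3 each; exact two-sided permutation test, p = 0.2). Of the 7 ratios between members that were compared, none had an exact p below 0.2 or an adjusted p below 0.7, where 3 against 3 samples cannot go below p = 0.1.

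**Figure D3:**
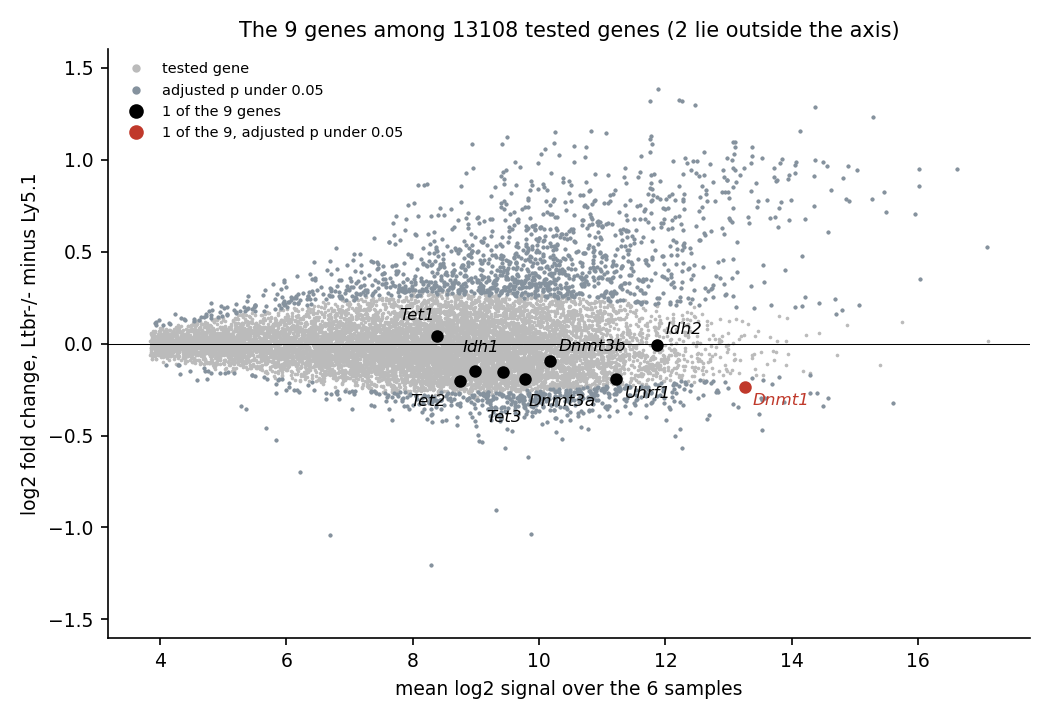
Log2 fold change (y axis, Ltbr-/- minus Ly5.1) against mean log2 signal (x axis) for the 13108 tested genes, of which 2 lie outside the y axis; dark grey points have an adjusted p under 0.05 in limma and the 9 genes are labelled. The 9 genes spread over mean log2 signals from 8.38 for *Tet1* to 13.25 for *Dnmt1*, and all but *Tet1* lie below 0.

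Levels were compared between genes as signal per kilobase of the longest protein-coding GENCODE transcript, a scale that rests on the choice of transcript. In Ly5.1 cells *Idh2* was at the top with 2150 ± 49.8 per kilobase, followed by *Dnmt1* with 1803 ± 58.1, *Uhrf1* with 709 ± 69.2, *Dnmt3b* with 277 ± 25.2, *Idh1* with 232 ± 10.5 and *Dnmt3a* with 96.3 ± 3.14 (SD, n = 3 each). The Tet genes were the lowest, with 66.9 ± 4.86 for *Tet3*, 51.0 ± 9.04 for *Tet2* and 22.9 ± 2.21 for *Tet1* (SD, n = 3 each). The ranges of all neighbours in this order were separate in Ly5.1 samples. In Ltbr-/- samples the order was the same, but the ranges of *Dnmt3b* (234 to 288) and *Idh1* (185 to 238) overlapped. The transcript of the maintenance enzyme thus had the highest level per length among the methyltransferase genes in each genotype, and *Tet1* the lowest level of the 9 genes.

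Genes that work with these enzymes were taken from lists, and each list is described by its counts beside those of all tested genes, of which 10.6% passed as higher and 4.18% as lower. Of 23 tested partners of the methyltransferases, 1 passed as higher, 0 as lower and 22 did not pass (limma), with 16 estimates below 0 and a median log2FC of −0.06. The gene that rose was *Dnmt3l*, a catalytically inactive cofactor of Dnmt3a and Dnmt3b that is mostly known from germ cells. Its signal was low, at 73.8, 79.3 and 86.9 in Ltbr-/- and 74.5, 62.8 and 62.3 in Ly5.1 replicates, with a log2FC of 0.27 (limma adjusted p = 0.0145). Ltbr-/- replicate 1 and Ly5.1 replicate 1 overlapped, and the call held in 3 of the 6 fits that left out a sample. *Hells*, a chromatin remodeler needed for normal methylation, was at 1196 ± 147 in Ltbr-/- and 1157 ± 38.6 in Ly5.1 samples (SD, n = 3 each, limma adjusted p = 0.822). *Dppa3* was listed at the same value in all samples.

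Of 18 tested genes that act with the Tet enzymes or in the base excision repair after them, 3 passed as lower (limma). As higher 0 passed, and 15 did not pass. Estimates lay below 0 in 10 genes and above 0 in 8, with a median log2FC of −0.09. *Cxxc5*, which encodes a CpG-binding protein known as an antagonist of Tet2, was at 530 ± 54.6 in Ltbr-/- and 655 ± 29.2 in Ly5.1 samples (SD, n = 3 each), a log2FC of −0.31 (limma adjusted p = 0.0226). *Ogt*, the O-GlcNAc transferase that binds Tet2 and Tet3, had a signal of 3219, 2831 and 2947 in Ltbr-/- and of 3591, 4057 and 3337 in Ly5.1 replicates, a log2FC of −0.29 (limma adjusted p = 0.0130). *Parp1*, a sensor of DNA strand breaks, had a log2FC of −0.22 (limma adjusted p = 0.0313). The groups of these 3 genes did not overlap, but their calls held in 2, 3 and 2 of the 6 fits that left out a sample. In this list the groups did not overlap in 5 genes as lower and in 2 as higher, against 13.5% and 17% of all tested genes. The highest estimate was that of *Gadd45a*, at 0.24 (limma adjusted p = 0.0521). *Tdg*, the glycosylase that excises the last oxidation products of the Tet enzymes, was among those that did not pass, at −0.09 (limma adjusted p = 0.507).

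Of 22 tested genes listed around methyl group supply, 4 passed as higher, 1 as lower and 17 did not pass (limma). Estimates lay below 0 in 12 and above 0 in 10, with a median log2FC of −0.06. The genes that rose lie in serine synthesis, mitochondrial one-carbon metabolism and polyamine synthesis, of which the last supplies no methyl groups. *Phgdh*, the first enzyme of serine synthesis, went from 2396 ± 88.9 in Ly5.1 to 3671 ± 87.0 in Ltbr-/- samples (SD, n = 3 each), a log2FC of 0.62 (limma adjusted p = 6.34e-08), but 46.9% of its 76-base windows are shared with other genes, mostly Gm-named copies, so that its value is uncertain. *Shmt2*, which makes the one-carbon unit from serine in mitochondria, had a log2FC of 0.33 (limma adjusted p = 0.00244), *Mthfd2*, the next enzyme there, 0.29 (limma adjusted p = 0.0256), and *Srm*, the spermidine synthase, 0.37 (limma adjusted p = 0.00263). The calls of *Phgdh*, *Shmt2* and *Srm* held in all 6 fits that left out a sample and that of *Mthfd2* in 1. *Mat2a* and *Ahcy*, which make S-adenosylmethionine and clear its product, did not pass, at −0.11 (adjusted p = 0.489) and −0.17 (adjusted p = 0.237) in limma.

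The list around 2-oxoglutarate gave more calls. Of 25 tested genes, 6 passed as higher, 0 as lower and 19 did not pass (limma). Estimates lay above 0 in 18 and below 0 in 7, with a median log2FC of 0.08. The groups did not overlap in 10 genes as higher and in 2 as lower, against 17% and 13.5% of all tested genes. These 2 were *Ogdh*, at −0.17 (limma adjusted p = 0.134), and *Dlst*, at −0.23 (limma adjusted p = 0.0677). *Slc25a1*, the mitochondrial citrate carrier, had the largest difference, with a signal of 2822, 3069 and 2677 in Ltbr-/- and of 1664, 1465 and 1937 in Ly5.1 replicates, a log2FC of 0.77 (limma adjusted p = 1.74e-08). It, *Phgdh* and *Rhox5* (below) were the genes of the pathway lists that also passed the 1.5-fold threshold. *Mdh2* and *Mdh1*, the malate dehydrogenases of mitochondria and cytosol, rose by a log2FC of 0.37 (limma adjusted p = 0.000195) and 0.22 (limma adjusted p = 0.0319), and *Fh1*, the fumarase, by 0.28 (limma adjusted p = 0.0130). The calls of *Slc25a1* and *Mdh2* held in all 6 fits that left out a sample, that of *Fh1* in 5 and that of *Mdh1* in 2. Quantile normalization ended the call of *Mdh1* (0.09, limma adjusted p = 0.414) and moved *Mdh2* to 0.21 (limma adjusted p = 0.0305).

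The same list holds the subunits of the NAD-dependent isocitrate dehydrogenase of the TCA cycle, which makes 2-oxoglutarate in mitochondria beside Idh2. *Idh3b*, a regulatory subunit, had a signal of 3117, 3303 and 3185 in Ltbr-/- and of 2421, 2495 and 2494 in Ly5.1 replicates. *Idh3g*, the other regulatory subunit, had 4071, 3842 and 4330 against 3566, 3477 and 3266. *Idh3a*, the catalytic subunit, had 1322, 1398 and 1426 against 1499, 1391 and 1376. The groups were thus separate for both regulatory subunits, higher in Ltbr-/- cells, and overlapped for the catalytic subunit. The log2FC values were 0.37 for *Idh3b* (limma adjusted p = 0.000416), 0.25 for *Idh3g* (limma adjusted p = 0.0223) and −0.04 for *Idh3a* (limma adjusted p = 0.805). The call of *Idh3b* held in all 6 fits that left out a sample and that of *Idh3g* in 3, and quantile normalization ended that of *Idh3g* (0.15, limma adjusted p = 0.176). The log2 ratio of *Idh3b* to *Idh2* within a sample, which no scaling by 1 factor per sample can change, was −0.22 ± 0.08 in Ltbr-/- and −0.60 ± 0.05 in Ly5.1 samples (SD, n = 3 each), a difference of 0.38. That of *Idh3g* to *Idh2* differed by 0.25 and that of *Idh3b* to *Idh3a* by 0.42. All Ltbr-/- samples were above all Ly5.1 samples in each of these 3 ratios (exact two-sided permutation test, p = 0.1, the smallest for 3 against 3). The ratios were chosen after *Idh3b* and *Idh3g* were seen to separate the groups, so that this p carries no added support.

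**Figure D4:**
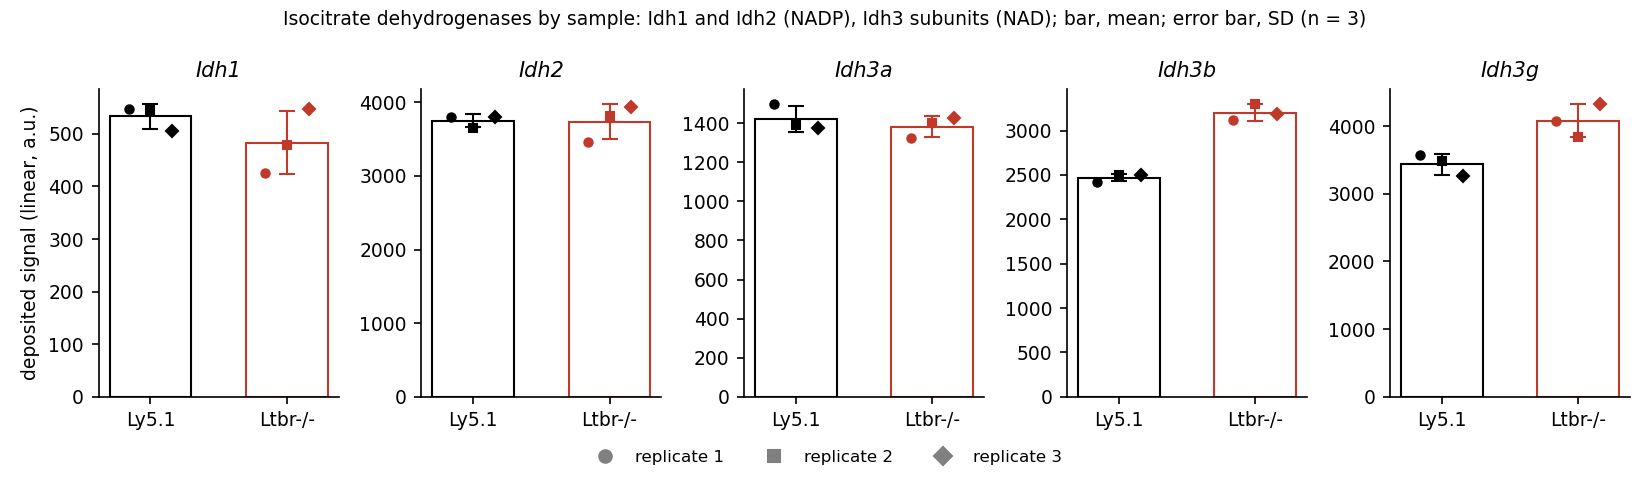
Deposited signal (linear, arbitrary units) of the 5 isocitrate dehydrogenase genes in each of the 6 samples, with an axis from 0; points are samples, bars means and error bars SDs (n = 3). The Ltbr-/- points lie above the Ly5.1 points for *Idh3b* and *Idh3g* and overlap them for *Idh1*, *Idh2* and *Idh3a*.

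Beside the enzymes, 25 genes of the germline were listed that are known to be silenced by promoter methylation in somatic cells. Of these, 4 were above the filter, and 14 of the other 21 were listed at the same value in all samples, among them *Rhox6* and *Rhox9*. *Rhox5*, a homeobox gene of the X chromosome, was the gene of the list that passed, with a signal of 5737, 5837 and 6779 in Ltbr-/- and of 2166, 2391 and 2461 in Ly5.1 replicates, a log2FC of 1.38 (limma adjusted p = 3.40e-16), a call that held in all 6 fits that left out a sample. *Tdrkh* was at −0.26 (adjusted p = 0.0771), *Brdt* at −0.04 (adjusted p = 0.713) and *Ddx4* at −0.01 (adjusted p = 0.916) in limma. DNA methylation itself was not measured in these samples.

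**Figure D5:**
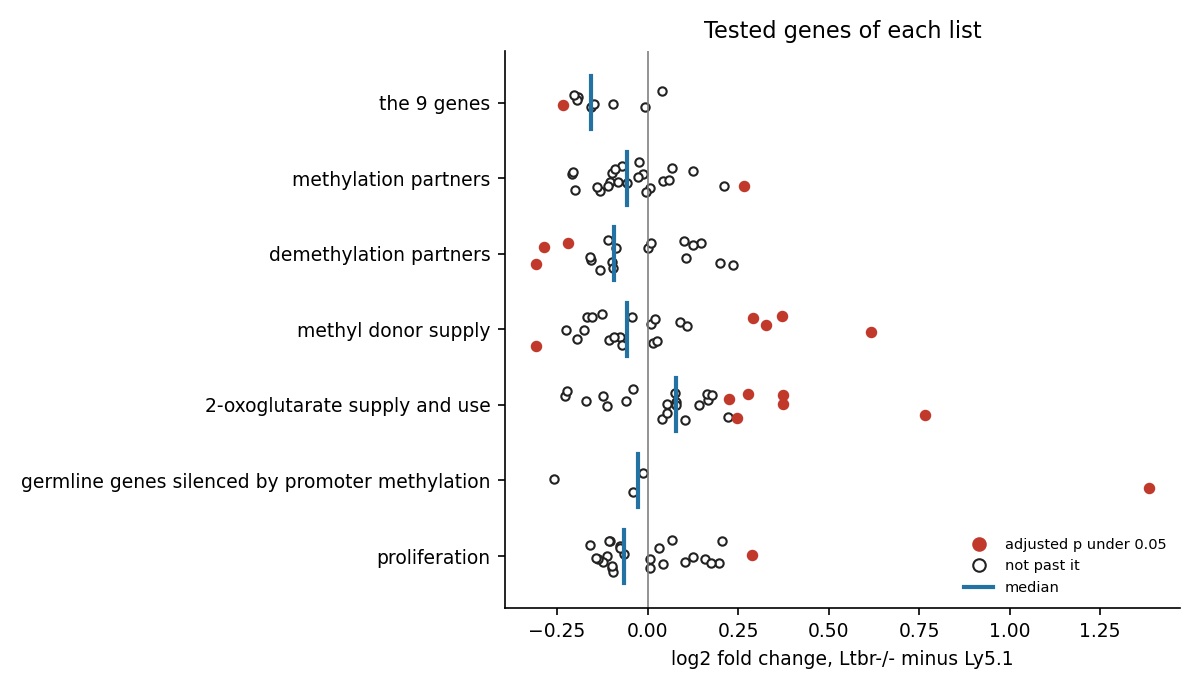
Log2 fold change (x axis, Ltbr-/- minus Ly5.1) of each tested gene, by list (y axis); red points have an adjusted p under 0.05 in limma and blue lines are medians. The list around 2-oxoglutarate has 6 red points, all above 0, and the genes that act with the Tet enzymes have 3, all below 0.

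The sign of a difference depends on how samples are scaled. Ribosomal protein genes were higher in Ltbr-/- cells, with a median log2FC of 0.79 over 80 genes, and the total signal was 12974100 to 13281100 in Ltbr-/- against 11689100 to 11983000 in Ly5.1 samples. Centring on the ribosomal protein genes moves the median over all tested genes to −0.89, and scaling to the same total moves it to −0.16. Relative to that median, *Dnmt1* was at −0.22 and *Idh3b* at 0.39 under each of these scalings, while their unshifted values were −1.11 and −0.50 in the first and −0.39 and 0.22 in the second. Each of these scalings moves every gene by the same amount, so that it bears on the zero point and not on how the genes differ from each other. With the zero point set by the ribosomal protein genes, *Rhox5* lies at 0.51. The 6 called genes around 2-oxoglutarate, *Dnmt3l*, *Ccnb2* and the 4 risen genes of the methyl group supply list lie below 0 there. Scaled to the same total, these genes stay above 0, but 7 no longer passed in limma, namely *Fh1* (0.13, adjusted p = 0.164), *Idh3g* (0.10, adjusted p = 0.271), *Mdh1* (0.07, adjusted p = 0.378), *Dnmt3l* (0.12, adjusted p = 0.210), *Ccnb2* (0.13, adjusted p = 0.134), *Mthfd2* (0.14, adjusted p = 0.196) and *Shmt2* (0.18, adjusted p = 0.0503).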

How the data were processed

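RNA of FACS-purified LT/ST-HSCs was sequenced with a stranded poly(A) kit. The authors used SeqMan NGen for read assembly and ArrayStar for gene values and deposited a signal per gene and sample. The labels name DESeq2 and GRCm38 (mm10), and the annotation used is not given in the sources used here. That the signal is 2 to the power of a regularized log was inferred from its values. Repeated names (75, none among the 9 genes) kept the entry with the highest mean. The upper 50% of names by mean, 13108, were fitted on the log2 scale without a pseudocount in limma 3.58.1 (R 4.3.3; lmFit, then eBayes with its trend option), and p-values were adjusted by Benjamini-Hochberg over all of them. Thresholds were an adjusted p of 0.05 and, as in the methods of the study, a 1.5-fold difference. Intervals are 95%. Members, gene lists and tests were chosen with earlier results of these data known. From each list, at most 6 genes past the adjusted p are named by rule, and 1 gene of methyl group supply is not reported here. *Mki67*, *Hells*, *Tdg*, *Gadd45a*, *Mat2a*, *Ahcy*, *Ogdh*, *Dlst*, *Idh3a*, *Tdrkh*, *Brdt* and *Ddx4* were added after values were seen. Cells of chimeras were pooled into the replicates, and p-values measure the spread between these pools. Positions, transcript lengths and shared 76-base windows are from GENCODE M21, and start windows from RefSeq (GRCm38.p6). Every exact permutation test was two-sided, and 3 against 3 cannot go below p = 0.1. The fit was tested on simulated data. Alternatives covered filters, scalings, pseudocounts, variance models, repeated names, fold thresholds, the replicate block and each sample left out. Scaling to the same total and the 3 ratios with Idh3 subunits were added after seeing the data.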

Additional observations from a re-analysis of the deposited data

How the results depend on the processing

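The count of the 9 genes past an adjusted p of 0.05 (1) was 0 with no filter and 0 with the upper 75% of names, where 2 and 3 had an unadjusted p under 0.05 in limma. It was 2 after quantile normalization and 9 with samples centred on ribosomal protein genes, which put 9 past the fold threshold too. It was 7 with samples scaled to the same total, an alternative chosen after seeing the data. Leaving out samples gave 0 to 2, with 0 without Ltbr-/- replicate 3 and without Ly5.1 replicate 1 (3 unadjusted in each) and 2 without Ly5.1 replicate 2 or 3. The cause of these changes was not tested. Over all genes the adjusted p alone gave 675 calls with no filter, 857 with the upper 75%, 12853 centred on ribosomal protein genes, 6688 scaled to the same total and 1253 to 1999 with samples left out, against 1936. With the fold threshold it gave 12010 and 231 under these scalings, 1647 at 1.2-fold and 42 at 2-fold, against 364. In the lists, no filter gave 0 methyltransferase partners, 0 Tet partners, 2 genes of methyl group supply, 2 around 2-oxoglutarate and 0 of proliferation (7, 6 and 7 unadjusted for the counts of 0), and the upper 75% gave 0, 0 and 0 for partners and proliferation (7, 5 and 5 unadjusted) and 3 of methyl group supply. Quantile normalization gave 4 methyltransferase partners and 8 proliferation genes. Centring on ribosomal protein genes gave 23, 18, 22, 24, 4 and 25 calls for methyltransferase partners, Tet partners, methyl group supply, 2-oxoglutarate, germline and proliferation genes, and scaling to the same total gave 11, 10, 13, 4 and 13 for these lists without the 2-oxoglutarate list. Methyltransferase partners had 0 calls without a trend (5 unadjusted) and 2 in the robust fit. With samples left out, the 6 lists in that order had 0 to 1, 1 to 4, 3 to 4, 3 to 7, 1 to 2 and 0 to 1 calls. Without Ltbr-/- replicate 3 the calls were 1253 over all genes, 0 for methyltransferase partners and proliferation (5 and 4 unadjusted), 1 for Tet partners and 3 for methyl group supply and for 2-oxoglutarate. Tet partners also had 1 without Ltbr-/- replicate 1 or 2 or Ly5.1 replicate 1, methyl group supply 3 without Ltbr-/- replicate 2 or Ly5.1 replicate 3, methyltransferase partners 0 without Ly5.1 replicate 2 (2 unadjusted), and without Ly5.1 replicate 1 proliferation had 0 (3 unadjusted) and the germline list 2. Same-numbered samples of the genotypes had correlations of 0.03, −0.0052 and 0.09 in their deviations from the group means, and of the 3 numbers only replicate 3 matched itself best, so the numbers were not taken as pairs. With the replicate number as a block, 2 proliferation genes and again 1 of the 9 genes were called (*Dnmt1*, adjusted p = 0.00242), and no other count of calls moved by over 1.5 times. The log2 fold change of *Tet1* turned to −0.84 centred on ribosomal protein genes and to −0.11 scaled to the same total, and with samples left out it ranged from −0.034 (without Ltbr-/- replicate 1) to 0.12 and was −0.0013 without Ly5.1 replicate 1. That of *Idh2* ranged from −0.046 to 0.046 with samples left out, and was above 0 without Ltbr-/- replicate 1, Ly5.1 replicate 1 (0.0019) and Ly5.1 replicate 3 (0.0028). With samples left out, the difference of the log2 ratio ranged from −0.022 (without Ly5.1 replicate 2) to 0.13 for *Uhrf1* over *Dnmt1* (−0.0052 without Ltbr-/- replicate 3), from −0.14 to 0.12 (without Ly5.1 replicate 2) for *Tet2* over *Dnmt3a* (0.05 without Ltbr-/- replicate 3) and from −0.18 to 0.033 (without Ltbr-/- replicate 3) for *Tet2* over *Tet3* (0.02 without Ly5.1 replicate 1 or 2). Over all alternatives, the log2 fold changes of the 9 genes kept their direction and side of the threshold in 143 values, newly passed it in 16, lost it in 4 and turned in 7. The depth of each sample is unknown from the files, and 3 samples per group limit the precision.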
